A study of Homo sapiens with 16 samples.

Results

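Trimethylation of lysine 9 on histone H3 (H3K9me3) was compared between PC9 cells given osimertinib and PC9 cells given vehicle. PC9 is a permanent human line of EGFR-mutant non-small cell lung cancer, and osimertinib inhibits mutant EGFR. Both groups were unedited cells, carried no guide RNA and had 1 library each, and the vehicle was DMSO. The members were all regions of both H3K9me3 lists, 2073 with osimertinib and 2749 with vehicle, or 4822 of the 59617 regions in the 8 lists of the series analysed here. Which binding assay was used, the osimertinib dose and the length of exposure are not stated in the labels used here, and the 6 RNA samples and 2 IgG samples were not analysed here. All 7 epithelial marker genes checked, among them EPCAM, KRT8 and CDH1, had an H3K4me3 promoter region under osimertinib and under vehicle, and none of them had an H3K9me3 promoter region. Of 5 fibroblast and endothelial markers, none had an H3K4me3 promoter region under either treatment.

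H3K9me3 marks compacted, silent chromatin, where HP1 proteins bind it. Zinc finger proteins with a KRAB domain bind DNA and bring in the corepressor TRIM28, which brings the methyltransferase SETDB1. The zinc finger (ZNF) genes that stand in clusters on chromosome 19 are themselves known to carry the mark, and the zinc finger protein ZNF274 is known to bring SETDB1 to the ends of such genes.

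The promoters below are examples of sequence that the lists placed under the mark. They are 3 that lay wholly inside a region with osimertinib and in none with vehicle, 1 inside regions of both lists, and 1 inside a vehicle region only. Each line gives the 250 bases before the start of the gene on its own strand, 5′ to 3′, from RefSeq (GRCh38.p14), with every CG in capitals, since CG-rich starts are the usual site of H3K4me3 rather than H3K9me3. ZNF584, ZNF776 and ZNF256 code for zinc finger proteins, ZSCAN22 for a zinc finger protein with a SCAN domain and SUMF2 for a relative of the sulfatase-modifying factor. The ZNF584 stretch is chr19:58408399-58408648 (plus strand), that of ZSCAN22 is chr19:58326744-58326993 (plus), that of SUMF2 is chr7:56064036-56064285 (plus), that of ZNF776 is chr19:57746565-57746814 (plus) and that of ZNF256 is chr19:57947707-57947956 (minus).
ZNF584: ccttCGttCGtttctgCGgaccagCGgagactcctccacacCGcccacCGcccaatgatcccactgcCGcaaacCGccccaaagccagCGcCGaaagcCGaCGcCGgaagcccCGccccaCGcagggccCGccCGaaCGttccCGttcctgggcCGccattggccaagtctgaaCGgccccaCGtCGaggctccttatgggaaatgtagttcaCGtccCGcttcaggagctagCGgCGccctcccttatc
ZSCAN22: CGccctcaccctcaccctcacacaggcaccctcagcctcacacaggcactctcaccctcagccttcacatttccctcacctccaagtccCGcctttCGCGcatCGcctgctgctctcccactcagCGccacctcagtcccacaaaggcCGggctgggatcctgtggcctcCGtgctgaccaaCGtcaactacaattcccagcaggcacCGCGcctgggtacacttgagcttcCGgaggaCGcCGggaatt
SUMF2: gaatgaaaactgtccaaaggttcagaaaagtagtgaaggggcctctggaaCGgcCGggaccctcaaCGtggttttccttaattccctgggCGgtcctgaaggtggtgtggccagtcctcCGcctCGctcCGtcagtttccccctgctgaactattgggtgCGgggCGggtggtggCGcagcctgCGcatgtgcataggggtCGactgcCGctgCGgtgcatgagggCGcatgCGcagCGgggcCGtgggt
ZNF776: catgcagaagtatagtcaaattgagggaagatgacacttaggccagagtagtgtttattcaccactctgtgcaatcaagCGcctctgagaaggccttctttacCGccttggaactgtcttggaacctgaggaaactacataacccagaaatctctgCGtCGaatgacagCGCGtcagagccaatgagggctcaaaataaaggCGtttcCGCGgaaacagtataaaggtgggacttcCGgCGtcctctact
ZNF256: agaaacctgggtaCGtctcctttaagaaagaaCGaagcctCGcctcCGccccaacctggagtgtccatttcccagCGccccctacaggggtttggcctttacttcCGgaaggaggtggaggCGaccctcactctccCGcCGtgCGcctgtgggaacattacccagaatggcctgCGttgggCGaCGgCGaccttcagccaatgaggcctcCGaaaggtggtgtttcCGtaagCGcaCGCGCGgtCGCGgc
The stretch held 27 CG in ZNF584, 14 in ZSCAN22 and 18 in SUMF2, the promoters covered with osimertinib alone. It held 11 in ZNF776, covered in both lists, and 22 in ZNF256, covered with vehicle alone. The regions over ZSCAN22, ZNF584 and SUMF2 ranked 1, 3 and 10 in the osimertinib list, and each overlapped an H3K4me3 region of both treatments. Of all osimertinib promoter regions, 20.4% overlapped an osimertinib H3K4me3 region and 17.5% a vehicle one, so these 3 are not typical. Over 300-base windows from 250 bases before to 50 after the start, 147 promoters lay wholly inside a region with osimertinib only, 39 with vehicle only and 23 in both lists. At least 10 CG stood in 81.6% of the windows covered with osimertinib only, in 66.7% of those covered with vehicle only and in 82.6% of those in both, against 56.0% of all 27305 RefSeq promoter windows of that length. The median was 19 CG with osimertinib only, 16 with vehicle only and 14 over all windows. CG reads the same on both strands, and the count is a description of the windows.

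The signal column of the osimertinib list has to be described before any rank is read. Where both could be set side by side it gave, to within a few percent, the values of the vehicle H3K4me3 list. H3K9me3 with osimertinib and H3K4me3 with vehicle had 33 sites at which their windows overlapped by at least 1900 bp. At those sites the ratio of the osimertinib H3K9me3 signal to the vehicle H3K4me3 signal had a median of 1.00 and ran between 0.948 and 1.04. It lay within 2% of 1 at 30 of the 33 sites and within 10% at all 33. At ZNF845 the signal was 11.5 in both lists, at SUMF2 it was 23.9 in the osimertinib H3K9me3 list and 23.7 in the vehicle H3K4me3 list, and at ZNF17 it was 13.4 in both lists. The osimertinib H3K9me3 signals at these sites lay between 1.88 and 23.9, and ZNF699, near the low end, had 2.10 in the osimertinib H3K9me3 list and 2.09 in the vehicle H3K4me3 list. Spearman's rho over the 33 sites was 0.999, as a description of sites that share both libraries.

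Neither the vehicle H3K9me3 list nor any other pair of lists showed this. H3K9me3 with vehicle and H3K4me3 with vehicle had 12 such sites, with ratios between 0.164 and 2.04 and 1 site within 10%. H3K9me3 with osimertinib and H3K9me3 with vehicle had 113 such sites, 4 of them within 10%, and their ratios ran between 0.0114 and 5.53. Against the osimertinib H3K4me3 list, 6 of 50 sites lay within 10%. Over the other 26 pairs of lists the share of sites within 10% lay between 0% and 28.1%, and 54 of 3127 sites lay within 2%. The ranks of the osimertinib list followed the same pattern. All 188 of its regions that overlapped a vehicle H3K4me3 region ranked 409 or better of 2073, and 74.1% of its regions (1537) had a signal below 1.28, the lowest of the vehicle H3K4me3 list. The lowest signal was 0.00532 with osimertinib and 0.866 with vehicle, and the median was 0.663 with osimertinib and 2.32 with vehicle. Ranks within the osimertinib list are therefore given below as deposited, and whether they order its regions by H3K9me3 was not tested. Region positions, overlaps and annotation classes do not use the column.

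The vehicle H3K9me3 list overlapped the H3K4me3 and KDM1A lists of osimertinib cells more than those of vehicle cells. Of its regions, 15.1% overlapped an osimertinib H3K4me3 region and 4.91% a vehicle one, and 18.0% overlapped an osimertinib KDM1A region and 4.15% a vehicle one. Whether the treatment labels of all these lists are right could not be checked from the tables, and every difference between osimertinib and vehicle below takes the labels as given.

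**Figure D1:**
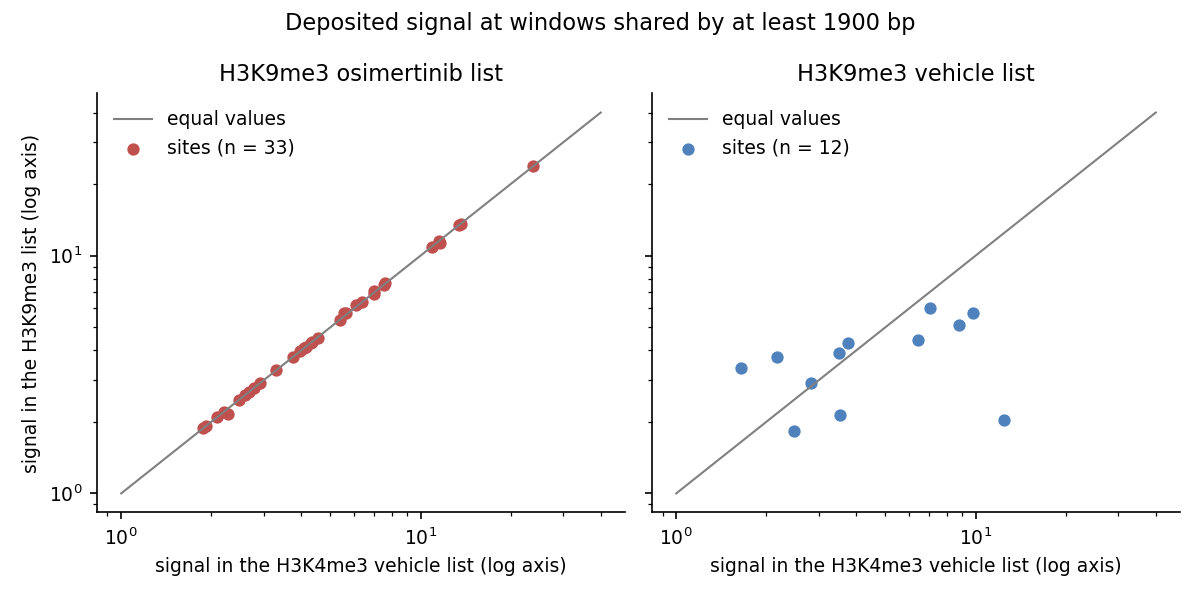
Deposited signal at sites where windows of 2 lists overlap by at least 1900 bp, on log axes: H3K9me3 with osimertinib (left, 33 sites) and H3K9me3 with vehicle (right, 12 sites) against H3K4me3 with vehicle, with a grey line at equal values. The osimertinib points lie on the line, with ratios between 0.948 and 1.04, while the vehicle points scatter around it between 0.164 and 2.04.

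Most regions of each list had no counterpart in the other. Of the osimertinib regions, 716 of 2073 or 34.5% (95% exact Clopper-Pearson interval 32.5% to 36.6%) overlapped a vehicle region by at least 1 bp, and 65.5% overlapped none. Of the vehicle regions, 715 of 2749 or 26.0% (24.4% to 27.7%) overlapped an osimertinib region, and 74% overlapped none. All intervals cover counting error only, and with 1 library per treatment no difference between treatments has a replicate check. A further 331 osimertinib regions and 400 vehicle regions lay within 3 kb of the other list without touching it. On chromosome 19 the shares were 51.0% of osimertinib regions (458 of 898) and 48.9% of vehicle regions (455 of 931). Outside it they were 22.0% of osimertinib regions (258 of 1175) and 14.3% of vehicle regions (260 of 1818). For regions without an overlap, the median gap to the other list outside chromosome 19 was 35047 bp for osimertinib regions and 103586 bp for vehicle regions. On chromosome 19 it was 4123 bp for osimertinib regions and 2665 bp for vehicle regions.

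Promoters made up more of the osimertinib list and introns less of it. Promoter regions, within 3 kb of a start, were 34.9% of the osimertinib list (724 regions) and 24.8% of the vehicle list (683), a difference of 10.1 percentage points (7.47 to 12.7, Newcombe interval). Intron regions were 14.6% with osimertinib (302) and 21.4% with vehicle (588), a difference of -6.82 points (-8.96 to -4.64). Intergenic regions were the largest class in both, at 42.5% with osimertinib (882) and 45.7% with vehicle (1255), a difference of -3.11 points (-5.93 to -0.274) that was 2.90 points (-0.646 to 6.41) without chromosome 19. Exons, 3′ UTRs and 5′ UTRs held 2.99%, 3.52% and 1.35% of the osimertinib list and 3.53%, 3.75% and 0.800% of the vehicle list, and each of these differences had an interval that included 0.

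The promoter regions of the osimertinib list also sat closer to the start. With osimertinib 69.8% of promoter regions (66.3% to 73.1%) lay within 1 kb of the start, and with vehicle 59.2% (55.4% to 62.9%). The start itself fell inside the region for 50.3% of promoter regions with osimertinib (364 of 724) and for 35.6% with vehicle (243 of 683). The same measure was 67.1% in the osimertinib H3K4me3 list and 73.7% in the vehicle H3K4me3 list. Without the 368 osimertinib and 445 vehicle regions that overlapped an H3K4me3 region of either treatment, the promoter difference was 9.66 points. Overlap between the H3K9me3 lists was higher for promoters than for intergenic regions: 38.5% with osimertinib and 42.3% with vehicle at promoters, against 27.7% with osimertinib and 19.4% with vehicle between genes. Chromosome 19, where overlap was higher over all classes, held 492 of the 724 osimertinib and 464 of the 683 vehicle promoter regions. Class and chromosome were not separated in these shares. Intron regions overlapped in 35.8% of cases with osimertinib and 18.4% with vehicle.

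**Figure D2:**
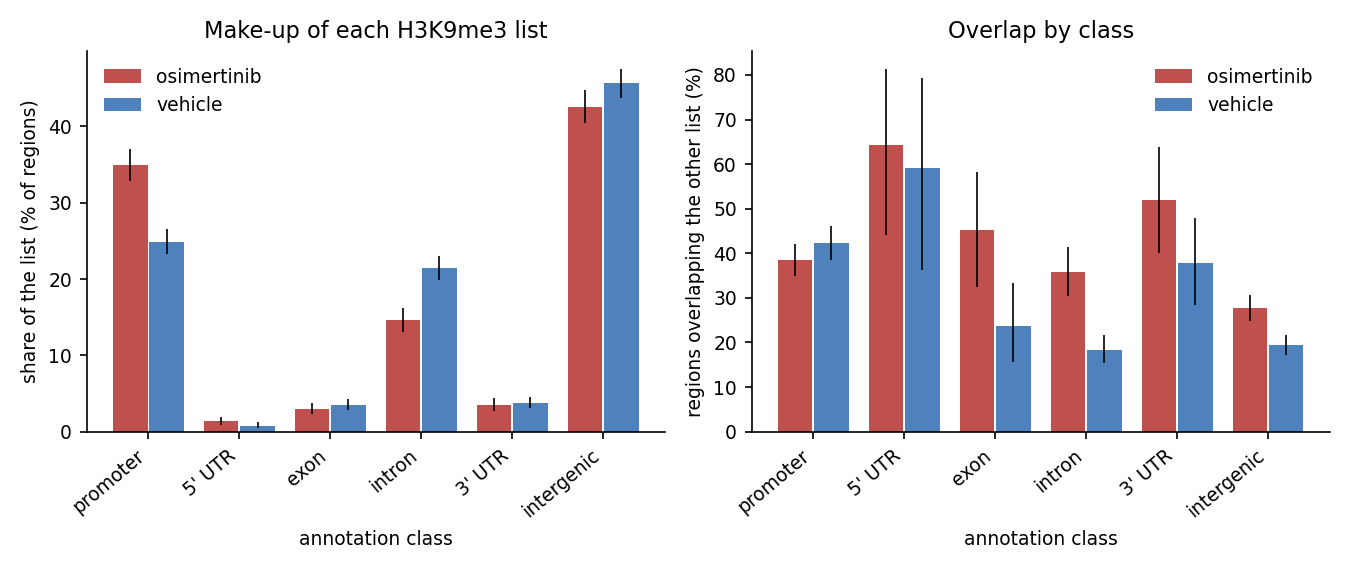
Left, share of each H3K9me3 list (% of regions) by annotation class; right, percent of regions of each class that overlap the other list by at least 1 bp. Red bars are osimertinib, blue bars vehicle, and lines are 95% exact intervals for counting error; promoters are 34.9% of the osimertinib list and 24.8% of the vehicle list.

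Chromosome 19 held the largest part of both lists, with 43.3% of osimertinib regions (898) and 33.9% of vehicle regions (931). The difference of 9.45 points (6.68 to 12.2) came with nearly equal numbers of regions, and it was 1.45 points (-1.56 to 4.45) when the vehicle list was cut to its 2073 strongest regions. Chromosome 7 held 245 osimertinib regions and 324 vehicle regions, the same share of each list. Chromosome 5 stood the other way, with 7.62% of osimertinib regions (158) and 14.7% of vehicle regions (404), a difference of -7.07 points (-8.81 to -5.31). Chromosome X held 59 osimertinib and 154 vehicle regions, chromosome 1 held 75 osimertinib and 161 vehicle regions, and chromosome 3 held 59 osimertinib and 118 vehicle regions. Besides chromosome 19, the chromosomes with a larger share of the osimertinib list and an interval of the difference that excluded 0 were Y, with 67 osimertinib and 30 vehicle regions, 17, with 48 osimertinib and 30 vehicle regions, and 16, with 63 osimertinib and 52 vehicle regions. For scale, chromosome 19 held 13.4% of the osimertinib and 12.8% of the vehicle H3K4me3 regions, and 1.50% of the osimertinib and 1.52% of the vehicle KDM1A regions.

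**Figure D3:**
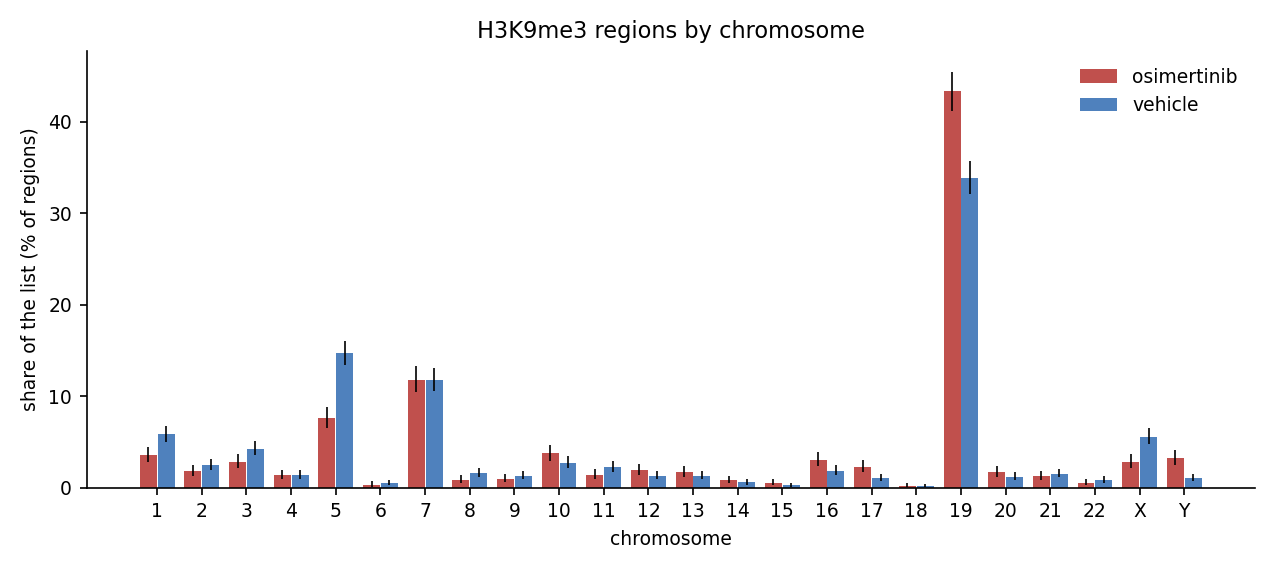
Share of each H3K9me3 list (% of regions) on each chromosome, osimertinib in red and vehicle in blue, with 95% exact intervals for counting error. Chromosome 19 has the tallest bars, 43.3% with osimertinib and 33.9% with vehicle, and chromosome 5 has 7.62% with osimertinib and 14.7% with vehicle.

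The ZNF genes of chromosome 19 differed between the lists mainly at their starts. RefSeq places 219 protein-coding genes named ZNF and a number on this chromosome. An H3K9me3 region lay on 64.4% of them (141) with osimertinib and on 60.3% (132) with vehicle. Within 1 kb of the start, 41.6% (91 genes, 35.0% to 48.4%) had a region with osimertinib and 21.5% (47 genes, 16.2% to 27.5%) with vehicle. Within 1 kb of the end, 24.7% (54 genes, 19.1% to 30.9%) had a region with osimertinib and 27.4% (60 genes, 21.6% to 33.8%) with vehicle. The intervals of the 2 lists did not overlap at the starts and overlapped at the ends. They count neighbouring genes as independent and are no test between treatments.

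Gene by gene, 57 of the 219 starts had a region with osimertinib only, 13 with vehicle only, 34 in both lists and 115 in neither. At the ends 26 had one with osimertinib only, 32 with vehicle only and 28 in both. H3K4me3 regions lay at 83 of the 219 starts with osimertinib and at 95 with vehicle. Of the 57 starts with a region under osimertinib only, 24 also had a vehicle H3K4me3 region there, and 31 had no H3K4me3 region under either treatment. Leaving out all H3K9me3 regions that overlapped an H3K4me3 region, 45 starts had a region with osimertinib and 20 with vehicle, and 26 ends had one with osimertinib and 37 with vehicle. With the vehicle list cut to its 2073 strongest regions, the starts with a region numbered 91 with osimertinib and 46 with vehicle. The same side was higher among the 218 ZNF genes of other chromosomes, where 15 starts had a region with osimertinib and 3 with vehicle, and 5 ends had one with osimertinib and 9 with vehicle. Other protein-coding genes were rarely marked: of 966 on chromosome 19, 19 had a region at the start with osimertinib and 11 with vehicle, and of 14439 elsewhere 19 had one with osimertinib and 7 with vehicle.

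**Figure D4:**
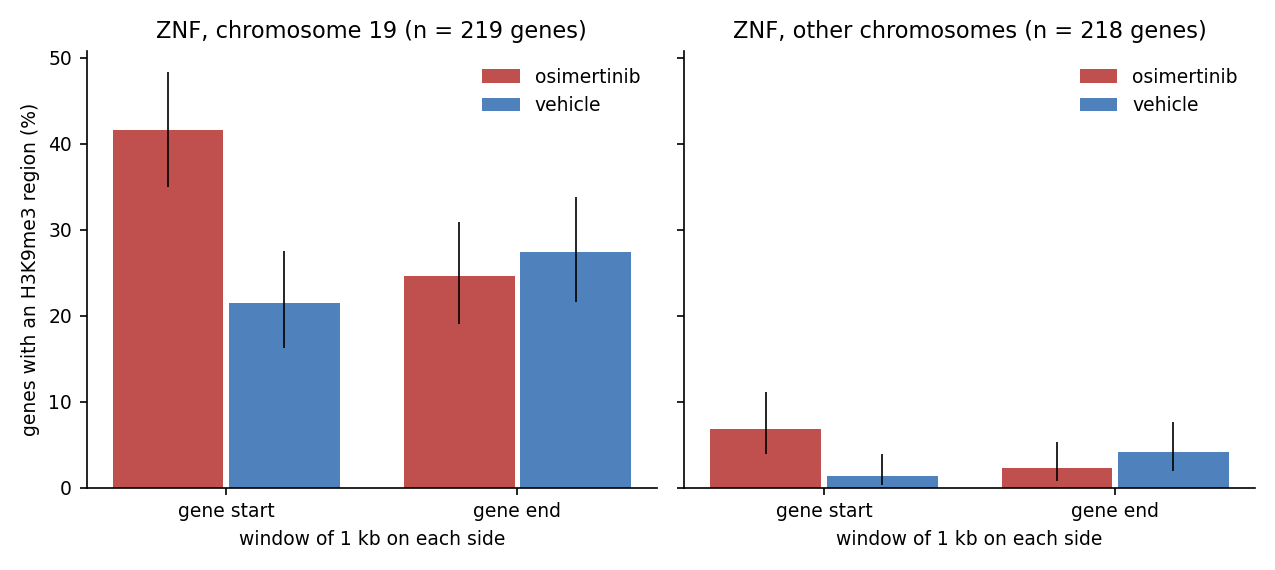
Percent of protein-coding ZNF genes with an H3K9me3 region within 1 kb of the gene start or end, for 219 genes on chromosome 19 (left) and 218 on other chromosomes (right), osimertinib in red and vehicle in blue, with 95% exact intervals for counting error. On chromosome 19 the starts stand at 41.6% with osimertinib and 21.5% with vehicle, and the ends at 24.7% with osimertinib and 27.4% with vehicle.

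Genes with an H3K9me3 promoter region numbered 748 over both lists. Of these, 292 (39%) had one with osimertinib only, 231 (30.9%) with vehicle only and 225 in both. The best ranked with osimertinib only were ZSCAN22 (rank 1), TRIM28 (rank 2), ZNF584 (rank 3), CHMP2A (rank 4), SUMF2 (rank 10), ZNF497 (rank 12), ZNF718 (rank 16) and ZBTB45 (rank 23), where the rank is that of the deposited signal. TRIM28 codes for the corepressor named above, and CHMP2A for a subunit of the membrane-cutting ESCRT-III complex. Of these 8, only SUMF2, on chromosome 7, and ZNF718, on chromosome 4, lay outside chromosome 19. The region at TRIM28 was chr19:58543217-58545216 and lay 109445 bp from the nearest vehicle H3K9me3 region, and that of CHMP2A was chr19:58551823-58553822, 118051 bp from one. The nearest vehicle H3K4me3 region, ranked 364 of 11621, was 2901 bp from the TRIM28 region and 1705 bp from the CHMP2A region. At ZSCAN22 the nearest vehicle H3K9me3 region was 2871 bp away, and the region overlapped a vehicle H3K4me3 region by 1006 bp. The 2 regions of ZNF584 lay 21554 bp and 29808 bp from the vehicle H3K9me3 list, and both overlapped H3K4me3 regions of both treatments. Of the 8 genes, 6 had an osimertinib H3K4me3 region under their best region, the exceptions being TRIM28 and CHMP2A.

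The best ranked promoter genes with vehicle only began with a pseudogene and a pair of DUX4 genes. ROCK1P1, a pseudogene on chromosome 18, ranked 31 of 2749, DUX4 on chromosome 4, which codes for a double homeobox factor of the early embryo, ranked 45 and its relative DUX4L15 on chromosome 10 ranked 73. The nearest osimertinib region was 13985240 bp away for ROCK1P1 and farther for DUX4 and DUX4L15. The others were BIRC8, a relative of inhibitors of apoptosis (rank 236), ZNF606 (rank 247), MTND5P6, a mitochondrial pseudogene on chromosome 7 (rank 343), ZSCAN4, a zinc finger gene of the early embryo (rank 403), and ZNF665 (rank 432). For these 5 an osimertinib region lay between 2537 bp (ZNF606) and 5152 bp (MTND5P6) from the vehicle region. The label with vehicle only rests on the authors' nearest gene and start. At DUX4 the vehicle region was chr4:190177755-190179754. The 250 bases before the RefSeq start of DUX4, chr4:190173524-190173773 (plus strand), lay wholly inside no region of either list. At ZNF606, an osimertinib region (percentile 96.5 of its list), assigned to AC008969.1, lay within 1 kb of the RefSeq start. No vehicle region lay within 1 kb of that start. The promoter genes with the best mean percentile over both lists were all on chromosome 19: ZNF587, ZNF841, ZNF776, ZNF274, ZNF544 and ZNF766. ZNF841 had 8 promoter regions with osimertinib and 6 with vehicle. ZNF274 had 3 promoter regions with osimertinib and 4 with vehicle, and 7 regions of any kind in each list.

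Over all annotation classes, 1802 genes were the nearest gene of some H3K9me3 region: 468 (26%) with osimertinib only, 752 (41.7%) with vehicle only and 582 in both. Of 255 ZNF genes, 155 (60.8%) were in both lists, against 32.3% of all genes, while 51 were with osimertinib only and 49 (19.2%) with vehicle only. At promoters alone the ZNF counts were 67 (33.2%) with osimertinib only, 39 (19.3%) with vehicle only and 96 (47.5%) in both, of 202 genes. Over all genes with a promoter region the shares were 39.0% with osimertinib only, 30.9% with vehicle only and 30.1% in both. Zinc finger genes of the ZSCAN, ZIK and ZFP type were in both lists for 12 of 15. ZNF552 had 6 regions with osimertinib and 5 with vehicle, ZSCAN18 had 8 with osimertinib and 8 with vehicle, and ZIK1 had 4 with osimertinib and 3 with vehicle. Of 7 imprinted genes, which are expressed from the copy of 1 parent, 4 were in both lists: ZNF331, with 5 regions under osimertinib and 9 under vehicle, ZNF264, with 1 under each, PEG3, with 2 under each, and ZIM2, with 2 under osimertinib and 3 under vehicle. The regions of PEG3 did not overlap between the lists.

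Counting any region, several receptor, RNA and repeat-linked families had fewer genes with osimertinib only than with vehicle only, as all genes did, at 26% with osimertinib only and 41.7% with vehicle only. Taste and vomeronasal receptor genes were in the osimertinib list only for 2 of 19, in the vehicle list only for 12 (63.2%) and in both for 5, with TAS2R1 among those with vehicle only and VN1R4 in both. Olfactory receptor genes were with osimertinib only for 6 of 20, among them OR5C1 and OR5D2P, and with vehicle only for 11. DUX and FRG genes were with osimertinib only for 3 of 18 and with vehicle only for 9. Small nuclear and nucleolar RNA genes were with osimertinib only for 11 of 47 and with vehicle only for 30 (63.8%). Long intergenic RNA genes were with osimertinib only for 22 of 94 and with vehicle only for 43 (45.7%), and microRNA genes were with osimertinib only for 10 of 26 and with vehicle only for 13. Cancer-testis genes were with osimertinib only for 3 of 6 and with vehicle only for 2, and genes of expanded segmental duplications were with osimertinib only for 1 of 3 and with vehicle only for none. At promoters alone the direction was the other one for all genes, 292 with osimertinib only and 231 with vehicle only, and for several of these families. Olfactory receptor genes then numbered 5 with osimertinib only and 4 with vehicle only, long intergenic RNA genes 8 with osimertinib only and 5 with vehicle only, microRNA genes 6 with osimertinib only and 4 with vehicle only, and small nuclear and nucleolar RNA genes 6 with osimertinib only and 5 with vehicle only. DUX and FRG genes had 3 with osimertinib only and 5 with vehicle only at promoters, and taste and vomeronasal receptor genes none with osimertinib only and 5 with vehicle only. Among genes for H3K9 methylation and its readers, TRIM28 was listed with osimertinib only and ZNF274 in both lists. No HOX gene, keratin-associated protein gene or replication-dependent histone gene was assigned a region in either list.

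Osimertinib regions were fewer than vehicle regions in several large blocks. The first 50 Mb of chromosome 5, which take in its short arm, held 126 osimertinib regions (6.08%) and 368 vehicle regions (13.4%), a difference of -7.31 points (-8.94 to -5.66). There the cadherin gene CDH18 had 1 with osimertinib and 8 with vehicle. On chromosome X between 64 and 67 Mb, the 3 successive bins of 1 Mb held 13, 2 and 9 regions with osimertinib, and 36, 25 and 35 with vehicle. HEPH, a copper-dependent iron oxidase in that block, had 6 regions with osimertinib and 18 with vehicle, the largest difference of any gene with a symbol other than a clone name. The pseudogene BLOC1S2P1, also there, had 3 with osimertinib and 10 with vehicle. EGFR, the target of osimertinib, was the nearest gene of no region with osimertinib and of 7 with vehicle. The best ranked of the 7 was intergenic (rank 904 of 2749), and the only promoter region among them ranked 2504. The bins of chromosome 7 from 54 to 55 Mb and from 55 to 56 Mb each held 2 regions with osimertinib, and held 10 and 11 with vehicle.

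Genes with more regions under osimertinib lay in other places. DEFB115, a defensin gene on chromosome 20, was the nearest gene of 23 regions with osimertinib and 15 with vehicle. The olfactory receptor pseudogene OR5AH1P on chromosome 19 had 9 with osimertinib and 4 with vehicle, the pseudogene PPP1R1AP2 on chromosome 16 had 10 with osimertinib and 4 with vehicle, and FPR1, a receptor for formylated peptides, had 5 with osimertinib and 1 with vehicle. Among 1 Mb bins, 10 to 11 Mb of chromosome Y held 42 regions with osimertinib and 13 with vehicle. The bin from 26 to 27 Mb of chromosome 17 held 18 with osimertinib and 6 with vehicle, and that from 133 to 134 Mb of chromosome 12, which holds ZNF891 and ZNF26, held 20 with osimertinib and 10 with vehicle. Over the genome, 696 bins held a region: 145 with osimertinib only, 295 with vehicle only and 256 in both lists.

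The ZNF clusters of chromosome 19 formed the longest runs in both lists, with runs defined as regions separated by at most 20 kb. The longest was chr19:51646169-53469882 with osimertinib, with 301 regions whose nearest genes included 42 ZNF genes, and chr19:51811441-53581441 with vehicle, with 330 regions and 41 ZNF genes. The next was chr19:57273014-58328172 with osimertinib, with 168 regions and 31 ZNF genes, and chr19:57248922-58323301 with vehicle, with 187 regions and 34 ZNF genes. The osimertinib list fell into 872 runs, 59 of them with at least 5 regions, and the vehicle list into 1328 runs, 74 of them with at least 5. Those longer runs held 49.9% of osimertinib regions and 41.8% of vehicle regions. The 10 densest bins of 1 Mb held 37.7% of the osimertinib list and 30.0% of the vehicle list. A run on chromosome X around HEPH, with 27 regions, was among the longest with vehicle, and none of the 12 longest runs with osimertinib lay on that chromosome.

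The strongest regions of each list, by its own signal column, were of different kinds. For osimertinib that column gave, to within a few percent, vehicle H3K4me3 values at the 33 sites compared above. Whether both lists are ordered by the same mark was not tested, so the sets below are no comparison of the treatments by H3K9me3. Where the osimertinib column gives H3K4me3 values, a high rank and an overlap with H3K4me3 are not independent. Of the strongest 100 with osimertinib, 86 lay on chromosome 19, 82 at promoters and 1 over 50 kb from a start, and 73 overlapped an osimertinib H3K4me3 region. Of the strongest 100 with vehicle, 20 lay on chromosome 19, 15 at promoters and 59 over 50 kb from a start, while 6 overlapped a vehicle H3K4me3 region and 46 a vehicle H3K4me1 region. In each list, 3 of these 100 regions overlapped a region among the strongest 100 of the other. The osimertinib list was led by promoters of chromosome 19, with ZSCAN22 (signal 126), TRIM28 (93.5), ZNF584 (68.3), CHMP2A (51.1) and PPP2R1A, a scaffold subunit of protein phosphatase 2A (40.5). PPP2R1A was the only one of those 5 whose region overlapped the vehicle H3K9me3 list, by 690 bp. The vehicle list was led by intergenic regions over 50 kb from a start. These were chr5:49658110-49660109 (rank 1, signal 360), chr1:143263065-143265064 (rank 2, signal 240), chr16:46398937-46400936 (rank 3, signal 237), chr16:46388232-46390231 (rank 4, signal 235) and chr5:49600225-49602224 (rank 5, signal 218). Those at ranks 1, 4 and 5 overlapped osimertinib H3K9me3 regions, by 1838 bp, 162 bp and 1792 bp. All 5 overlapped an osimertinib H3K4me3 region and none a vehicle H3K4me3 region. All 5 also overlapped an osimertinib H3K4me1 region, and all but rank 2 a vehicle H3K4me1 region. Those at ranks 1 and 5 overlapped an osimertinib KDM1A region as well. The overlap at these windows was therefore not particular to H3K4me3, and whether their signal is specific to H3K9me3 was not tested.

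Within the vehicle list, overlap with osimertinib fell steadily with rank. In its strongest decile 59.6% of regions (164 of 275) overlapped an osimertinib region, in the fifth decile 21.8% and in the weakest 2.19% (6 of 274). The share on chromosome 19 was highest in the second decile, at 69.5%, and was 5.84% in the weakest. Regions over 50 kb from a start were 31.3% of the strongest decile, 9.45% of the second and 32.5% of the weakest. Within the osimertinib list, by its deposited column, the overlap was 56.3% in the strongest decile and 18.8% in the weakest.

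**Figure D5:**
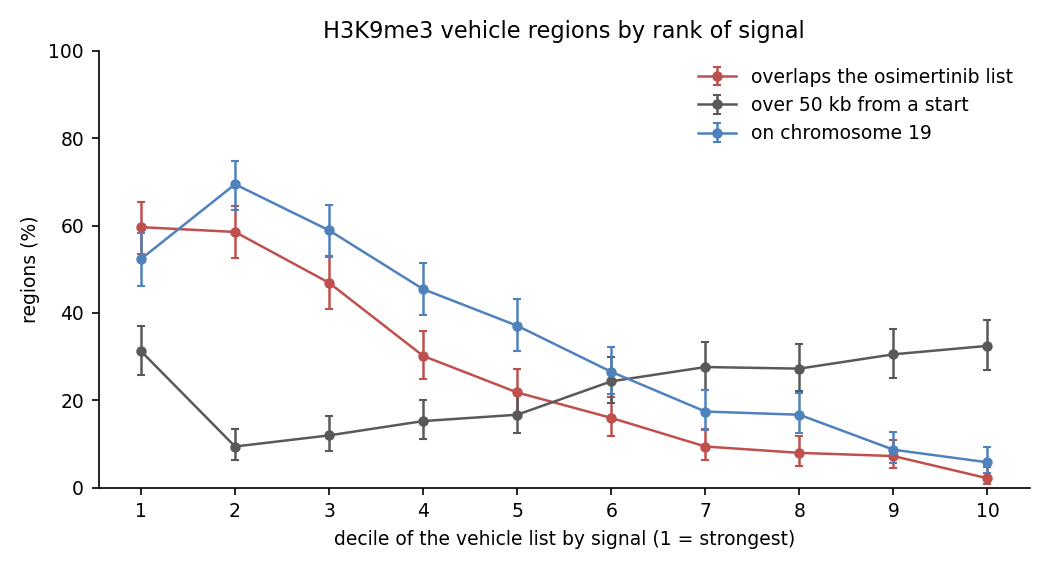
Percent of H3K9me3 vehicle regions in each decile of the list by signal (1 is the strongest) that overlap the osimertinib list, lie over 50 kb from a start or lie on chromosome 19, with 95% exact intervals for counting error. The overlap with osimertinib falls along the list to 2.19% in the weakest decile, against 59.6% in the strongest, while regions far from a start are most frequent at both ends.

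At the 716 shared sites the ranks of the lists were weakly related, with a Spearman's rho of 0.297, given as a description of sites that share both libraries and the signal column described above. A percentile here is a region's place in its own list by signal, with 100 at the strong end. The median percentile of the shared sites was 67.0 in the osimertinib list and 77.8 in the vehicle list. On chromosome 19 the medians were 77.9 with osimertinib and 79.7 with vehicle, and outside it 39.0 with osimertinib and 71.2 with vehicle. Sites with a far higher percentile under osimertinib were near ZNF549 (88.4 with osimertinib, 14.3 with vehicle), ZNF26 (85.6 with osimertinib, 16.6 with vehicle), TPRG1LP1 (77.4 with osimertinib, 14.1 with vehicle) and ZNF701 (81.8 with osimertinib, 23.4 with vehicle). Sites with a far higher percentile under vehicle were a pair whose nearest gene was the pseudogene KSR1P1 on chromosome 10 (0.0241 with osimertinib and 99.1 with vehicle, and 0.362 with osimertinib and 97.5 with vehicle), 1 near LINC01691 (0.699 with osimertinib, 95.2 with vehicle) and 1 near FRG1DP (6.87 with osimertinib, 98.0 with vehicle). The first group lay at promoters and the second over 50 kb from any start.

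Over all regions, both H3K9me3 lists overlapped the osimertinib H3K4me3 list more often than the vehicle one. Of the osimertinib H3K9me3 regions, 14.5% (13.0% to 16.1%) overlapped an osimertinib H3K4me3 region and 9.07% (7.87% to 10.4%) a vehicle H3K4me3 region. Of the vehicle H3K9me3 regions, 15.1% (13.7% to 16.5%) overlapped an osimertinib H3K4me3 region and 4.91% (4.13% to 5.79%) a vehicle one. The H3K4me3 lists held 13285 regions with osimertinib and 11621 with vehicle. In the strongest decile of the vehicle H3K9me3 list, 60.0% overlapped an osimertinib H3K4me3 region and 12.7% a vehicle one. The strongest decile of the osimertinib H3K9me3 list, by its deposited column, went the other way, at 68.8% for osimertinib and 73.6% for vehicle H3K4me3. So did osimertinib H3K9me3 promoters outside chromosome 19, at 5.60% for osimertinib and 7.76% for vehicle H3K4me3. Sites in both H3K9me3 lists overlapped osimertinib H3K4me3 in 28.9% of cases, against 6.93% for sites listed with osimertinib only and 9.93% for sites with vehicle only.

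KDM1A, the demethylase LSD1, showed a like pattern, with 8882 regions under osimertinib and 4731 under vehicle. It overlapped 8.44% of osimertinib H3K9me3 regions in its osimertinib list and 4.25% in its vehicle list. Of the vehicle H3K9me3 regions, 18.0% (16.6% to 19.5%) overlapped an osimertinib KDM1A region and 4.15% (3.43% to 4.96%) a vehicle one. In the first 50 Mb of chromosome 5, osimertinib KDM1A regions lay on 29.4% of osimertinib H3K9me3 regions and on 41.8% of vehicle H3K9me3 regions. H3K4me1, a mark of enhancers, was nearly absent from H3K9me3 promoters of chromosome 19, at 0 of 492 regions with osimertinib (up to 0.747%) and 0 of 464 with vehicle (up to 0.792%), each against the H3K4me1 list of its own treatment. It was also rare at H3K9me3 promoters outside chromosome 19, at 2 of 232 with osimertinib and 8 of 219 with vehicle. Chromosome 19 held only 1.93% of the osimertinib and 4.55% of the vehicle H3K4me1 regions. Over all classes, osimertinib H3K9me3 regions overlapped osimertinib H3K4me1 in 7.19% of cases and vehicle H3K4me1 in 11.1%. Vehicle H3K9me3 regions overlapped osimertinib H3K4me1 in 8.26% of cases and vehicle H3K4me1 in 5.71%. Over 50 kb from a start the shares of osimertinib H3K9me3 regions were 22.5% for osimertinib H3K4me1 and 36.9% for vehicle H3K4me1, and those of vehicle H3K9me3 regions were 15.5% for osimertinib H3K4me1 and 13.9% for vehicle H3K4me1. The H3K4me1 lists held 6515 regions with osimertinib and 9761 with vehicle.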

How the data were processed

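H3K9me3 regions of unedited PC9 cells were taken from tables deposited by the authors, 1 library with osimertinib and 1 with vehicle, grouped by the sample titles. The genome build is GRCh38 (hg38) and the tools listed are featureCounts, HISAT2 and Bowtie2 2.3.4, with no roles, per the submitters' processing notes. No source used here gives the peak caller, its threshold, the control or any pooling. The authors' deposited signal is a height per region that is never negative, on a scale that is not stated, and was used only for ranks within a list and for the ratios between lists. The other deposited columns used, per the file headers and values, hold the signed distance to the nearest start in bp and a repeated window width. Every region is 2000 bp wide, and classes and nearest genes are the authors'. The depth of reads is unknown, and the numbers of regions alone set the precision.

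Gene IDs matched a symbol for 99.4% of osimertinib and 99.5% of vehicle regions, and 1 gene name turned into a date was restored in the osimertinib list. Overlaps (at least 1 bp) were computed in Python 3.11.15 with numpy 2.4.6, pandas 2.3.3 and scipy 1.17.1, equalled those of bedtools 2.31.1 and were tested on simulated data; figures used matplotlib 3.10.9. Shares have 95% Clopper-Pearson intervals and differences Newcombe intervals. With 1 library per group no test and no p-value was computed. ZNF gene starts and ends and promoter sequences came from RefSeq (GRCh38.p14). The members, gene lists and rules were chosen with earlier results of these data known. Genes were named by rule: the best ranked promoter genes per list and in both, the largest excess of regions, the largest change of percentile, up to 4 genes per family, the strongest regions and the longest runs. Some genes that this rule or the marker lists name are left out of the text. Of 20 gene lists, those with few or no genes are summarised. The ZNF start and end windows, the comparison of signal columns and the printed sequences were chosen after seeing the data. GC and repeat content of whole regions was not analysed here.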

Additional observations from a re-analysis of the deposited data

How the results depend on the processing

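With 1 library per treatment no library could be left out. No paired analysis was possible because each group held 1 library and no test was made. Of 72 values recomputed under other settings, 39 stayed within the interval or range set for them, 31 moved and 2 changed sign. The overlap was 34.5% of osimertinib and 26.0% of vehicle regions. It was 22.5% of osimertinib and 17.0% of vehicle regions when 1000 bp were required, 42.3% of osimertinib and 32.8% of vehicle regions when regions within 1 kb counted, and 37.3% of osimertinib and 37.6% of vehicle regions among the strongest 1000 of each. It was 22.0% of osimertinib and 14.3% of vehicle regions without chromosome 19. Without regions that overlap H3K4me3, a setting added after seeing the data, it was 27.2% of osimertinib and 20.0% of vehicle regions. With equal numbers of regions the vehicle overlap was 32.7%, the chromosome 19 difference 1.45 points, the promoter difference 6.80 points and the intron difference -4.63 points. Among the strongest 1000 the intergenic difference was -13.1 points and the intron difference changed sign, to 0.600 points. Without chromosome 19 the intergenic difference changed sign, to 2.90 points, and the intron difference was -9.41 points. Counting any region, 468 genes were with osimertinib only, 752 with vehicle only and 582 in both; promoters within 1 kb left 147 in both. At promoters 96 ZNF genes were in both. Settings added after seeing the data moved the ZNF starts and ends. A 3 kb window gave 111 starts with osimertinib and 76 with vehicle, and 92 ends with osimertinib and 98 with vehicle. Requiring the centre of the region inside the window gave 68 starts with osimertinib and 28 with vehicle, and 22 ends with osimertinib and 37 with vehicle. Without regions that overlap H3K4me3 there were 45 starts with osimertinib and 20 with vehicle, and 26 ends with osimertinib and 37 with vehicle. In all 4 added settings more starts had a region with osimertinib than with vehicle. The cause of these changes was not tested. The strongest 1000 and the Spearman's rho at shared sites used osimertinib ranks, which carry the signal column described above; rho was 0.297, and 0.316 with 1000 bp of overlap, 0.205 without chromosome 19 and 0.272 with equal numbers of regions. Depth is unknown, so weak regions missed in 1 list cannot be told apart from regions that are absent.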

Other observations

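The kinds of nearest gene, where known, were mostly alike in the lists. The kind was not matched for 37.7% of osimertinib regions and 37.4% of vehicle regions. Protein-coding genes were nearest to 35.7% of osimertinib regions and 34.3% of vehicle regions, a difference of 1.41 points (-1.31 to 4.13), and pseudogenes to 20.7% with osimertinib and 21.0% with vehicle. Long noncoding RNA genes were nearest to 4.39% with osimertinib and 6.26% with vehicle, a difference of -1.87 points (-3.12 to -0.581). Regions over 50 kb from a start were 21.9% of the osimertinib list and 22.7% of the vehicle list. By the deposited signal of the osimertinib list, described above, their median rank was 1597 of 2073 and their best rank 86. In the vehicle list their median rank was 1688 of 2749 and their best rank 1.

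By the deposited signal of the osimertinib list, promoter windows under its strongest decile held a median of 23 CG (69 windows), and those under the rest a median of 17 (101 windows). In the vehicle list the medians were 18 in the strongest decile (5 windows) and 18 in the rest (57 windows).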
